A study of Mus musculus with 6 samples.

Results

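Cytochrome P450 genes were followed in inflamed mouse ear skin. Members were taken by symbol: Cyp followed directly by a digit, with Cyp51 and Cyp4f39 left out, on probe sets that carry 1 gene symbol. This gave 85 of the 19938 genes measured, each with 1 probe set, in 14 numbered families, and 2 of the 85 are pseudogenes by name (Cyp2d37-ps and Cyp4f41-ps). Family 2 held 45 members, family 4 held 15, family 3 held 6, families 1, 11 and 26 held 3 each, families 7 and 27 held 2 each, and families 8, 17, 20, 21, 39 and 46 held 1 each. Whole ear RNA came from 6 mice aged 10 to 12 weeks, with 1 mouse and 1 challenged ear per array. Of these, 3 carried 1 copy of the CLEC4C-DTR transgene (genotype CLEC4C-DTR/+) and 3 were littermates without it. The transgene puts the diphtheria toxin receptor under the human CLEC4C promoter, which is used by plasmacytoid dendritic cells, and toxin can then kill cells in which the promoter is active. Toxin was given to every mouse, controls included, at 200 ng on each of days -1, 1, 3 and 5. FITC (fluorescein isothiocyanate, a skin-sensitising dye) at 0.5% was put on shaved abdominal skin on days 0 and 2, at 100 µL each, and 20 µL of it went on the right ear on day 6. Transgenic mice spared the toxin, and ears without FITC, were not among these samples. How long after the ear challenge the skin was taken is not stated in the labels.

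P450 enzymes are haem proteins that insert an oxygen atom into small lipophilic molecules, using electrons handed on by partner proteins. Some families clear drugs and environmental chemicals, while others make or degrade signalling lipids such as retinoic acid, steroids, oxysterols, vitamin D and arachidonic acid products. In skin they are found in epidermis and sebaceous gland among other places, and retinoic acid breakdown by the Cyp26 enzymes limits retinoid signals there.

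Levels are the deposited log2 values from RMA (robust multi-array average), which puts all arrays on nearly one distribution and compresses differences of dim genes. No background measure was available, so presence or absence could not be called for any gene, and the brightness of different probe sets does not order transcript amounts. The median over all probe sets was 6.17 to 6.23 on the 6 arrays. Markers bore out the tissue label: basal keratinocyte genes averaged 10.09 to 10.44 on the log2 scale in CLEC4C-DTR and 10.61 to 10.70 in control mice. The 5 measured hepatocyte genes averaged 4.75 to 4.82, which bears on many of the members since most P450 families are known from liver. For a single gene, exact permutation of 3 arrays against 3 gives no p below 0.1, so the calls rest on limma's model across all genes, and the number of arrays limits the precision of every value.

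Most P450 genes were dim in ear skin, and their share of calls lay near that of all genes. Of the 85 members, 45 lay below percentile 25 of all genes by mean level and 71 at or below the median. Of the 85, limma called 9 at an adjusted p of 0.05 (10.6%, against 9.32% of all genes). The 3 that rose in CLEC4C-DTR skin were Cyp4f18, Cyp7b1 and Cyp1b1 (3.53%, against 5.01% of all genes). The 6 that fell were Cyp26a1, Cyp3a57, Cyp2j9, Cyp2b10, Cyp17a1 and Cyp4a31 (7.06%, against 4.31%). These shares lie near those of all genes, and nothing is read from them about the P450 genes as a whole. Only Cyp4f18 and Cyp26a1 of the called members also passed the 2-fold threshold of the study's design text, which 2.05% of all genes passed. The median difference over the 85 members was -0.06 on the log2 scale, beside -0.04 over all genes, and 61 of 85 differences were smaller than 0.25 in size.

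**Figure D1:**
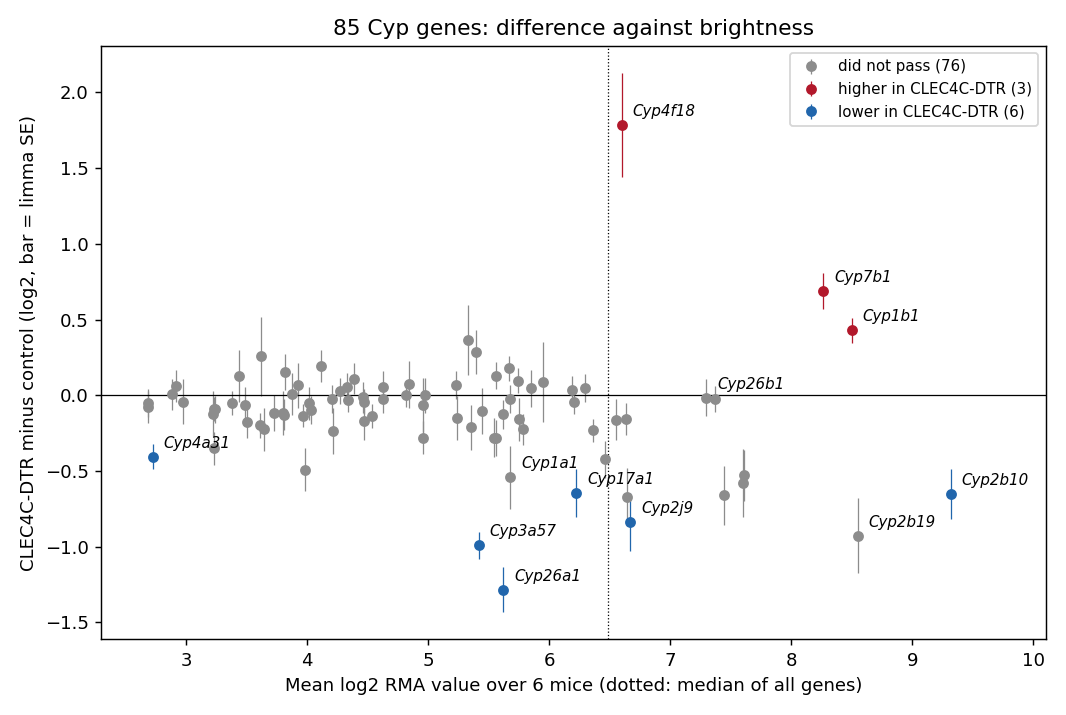
Difference between CLEC4C-DTR and littermate control skin (log2, y axis) against mean log2 RMA value over 6 mice (x axis) for the 85 Cyp genes, with bars of 1 limma SE, called genes coloured and the median level of all genes dotted. Of the 14 members above that median, 5 were called, and the 71 at or below it held 4 calls.

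The calls can be read beside the level of the genes. Of the 14 members above the median level of all genes, limma called 5, where 14.8% of all genes above the median were called. Among the 71 dimmer members it called 4, where 3.87% of the dimmer genes were called. In 5 members all 3 CLEC4C-DTR values lay above all controls, a pattern that 14.0% of all genes had. In 19 members all 3 lay below, a pattern of 19.0% of all genes, and in 61 the groups overlapped, where 33.0% of all genes did not overlap in one direction or the other. Of the 19 non-overlapping lower members, 10 had their lowest value in CLEC4C-DTR mouse 2, as did 54.7% of the 3791 genes with that pattern. The sign of small differences moved with the scaling of the arrays: 57 of 85 members were negative as deposited, 47 after centring each array on its median and 51 after a further quantile normalisation. The calls of all genes moved likewise, from 998 higher and 860 lower to 1150 and 644 after centring and to 940 and 997 after quantile normalisation.

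Most of the calls were lost in some of the fits that leave out 1 array, which also hold fewer arrays. Without CLEC4C-DTR mouse 1 all 9 calls remained and Cyp2b19, Cyp2j6 and Cyp4b1 joined them. Cyp26a1 and Cyp3a57 passed in each of the 6 fits that leave out 1 array. Without CLEC4C-DTR mouse 2 the other 7 had adjusted p of 0.0540 to 0.0996, and without CLEC4C-DTR mouse 3 of 0.0601 to 0.127. Without control 1 their adjusted p was 0.0627 to 0.138 and without control 3 it was 0.0790 to 0.151. Without control 2, Cyp17a1, Cyp2b10 and Cyp2j9 did not pass (adjusted p 0.0607 to 0.0731) and the other 6 did. The direction of the 9 was the same in every one of these fits.

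**Figure D2:**
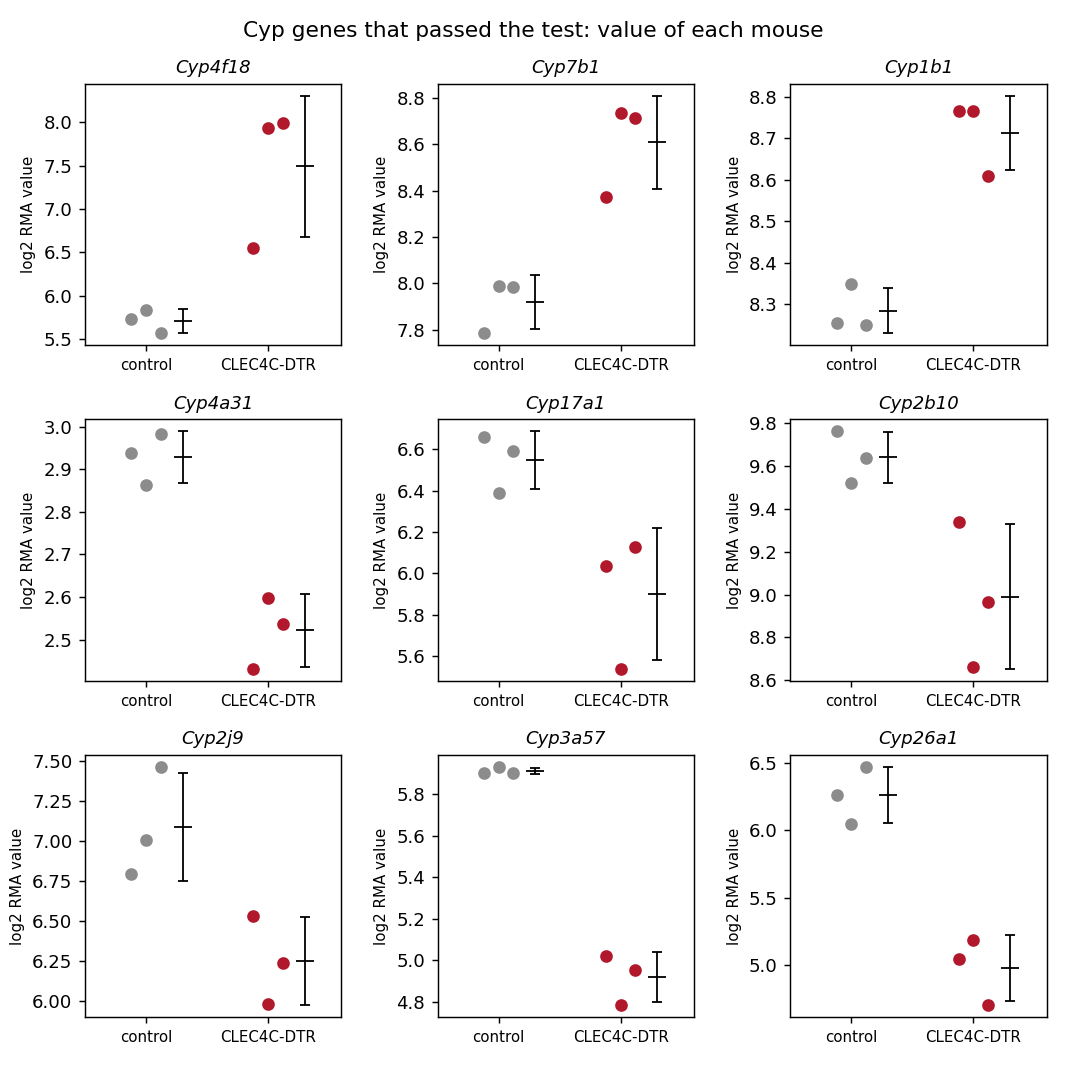
Log2 RMA value (y axis, own scale in each panel) of each mouse for the 9 called Cyp genes, in littermate controls (grey) and CLEC4C-DTR mice (red), with the mean and SD beside the points. The groups do not overlap in any panel, and Cyp4f18 has the widest spread in CLEC4C-DTR skin, from 6.55 to 7.99.

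Among the retinoic acid hydroxylases of family 26, which degrade retinoic acid, Cyp26a1 fell, while the differences of Cyp26b1 and Cyp26c1 did not pass. Cyp26a1 read 5.05, 5.18 and 4.70 in CLEC4C-DTR mice 1, 2 and 3 and 6.26, 6.05 and 6.47 in controls 1, 2 and 3. All CLEC4C-DTR values thus lay more than 0.5 below the lowest control. The means were 4.98 ± 0.25 and 6.26 ± 0.21 (SD, n = 3 each), a 2.43-fold fall (log2 -1.28, SE 0.15, 95% interval -1.63 to -0.94, limma adjusted p = 0.00989). With single arrays left out the difference was -1.39 to -1.15 and the adjusted p 0.00399 to 0.0498. Fewer cells that hold a transcript and less of it per cell cannot be told apart in whole skin, here and for every gene below.

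The second enzyme, Cyp26b1, is the brightest of the family on these probe sets. It read 7.43, 7.43 and 7.01 in CLEC4C-DTR and 7.26, 7.34 and 7.31 in control mice, so the groups overlapped. Its difference was -0.02 (95% interval -0.30 to 0.27, adjusted p = 0.953) and turned to 0.03 after centring the arrays. Cyp26c1, the neighbour of Cyp26a1 on the chromosome, read 5.57, 5.64 and 5.46 against 5.71, 5.55 and 5.79 (log2 -0.13, adjusted p = 0.440). Within each array, the log2 ratio of Cyp26a1 to Cyp26b1 was -2.39, -2.24 and -2.31 in CLEC4C-DTR mice and -1.00, -1.29 and -0.85 in controls. The ratio therefore did not overlap between the groups; this pair was picked with the values known and carries no test.

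Cyp26a1 is a known direct target of retinoic acid receptors, which bind paired copies of a short site with 5 bases between. The bases before its annotated start are shown because they hold such a repeat, in capitals, on the antisense strand at positions -32 to -16 (RefSeq, GRCm38.p6, plus strand, chr19:37697688-37697807):
Cyp26a1: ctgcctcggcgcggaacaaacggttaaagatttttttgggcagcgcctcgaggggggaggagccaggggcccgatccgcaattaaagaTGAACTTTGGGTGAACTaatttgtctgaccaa
The letters searched were AGTTCA, any 5 bases and AGTTCA again, on both strands, in windows of 250 bases before to 50 after the start, and the repeat overlaps no other motif searched. Of 32851 RefSeq windows, 8 held it (0.0244%), and of 70 windows of 62 Cyp genes only that of Cyp26a1 did. The variant with AGGTCA in both places was found in 3 windows (0.00913%) and in no Cyp window. A match of letters is a description and not evidence of binding in these samples.

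Genes that supply, carry and sense retinoids moved in both directions. Of 20 measured on a list of 21, limma called 5 higher and 4 lower, with a list median of -0.09, where 9.32% of all genes were called and 14.8% of those above the median level, as 16 of the 20 were. Crabp2, which carries retinoic acid to its receptors, read 9.66, 9.97 and 9.93 in CLEC4C-DTR and 8.86, 8.96 and 9.05 in control mice. The groups lay apart by more than the spread within either (log2 0.90, SE 0.11, adjusted p = 0.00989), and this call passed with any 1 array left out. Fabp5, another retinoic acid carrier, rose by 0.76 (adjusted p = 0.0225). Aldh1a2 and Aldh1a3, which make retinoic acid from retinaldehyde, rose by 0.75 (adjusted p = 0.0345) and 0.61 (adjusted p = 0.0497), and Dhrs9, a retinol dehydrogenase, by 1.58 (adjusted p = 0.0446). On the other side, the retinaldehyde reductase Dhrs3 fell by 0.57 (adjusted p = 0.0434) and the alcohol dehydrogenase Adh7 by 1.18 (adjusted p = 0.0293). Sdr16c5, an epidermal retinol dehydrogenase, fell by 0.90 (adjusted p = 0.0494) and the retinol carrier Rbp4 by 0.62 (adjusted p = 0.0146). Apart from Crabp2, each of these calls was kept in at most 3 of the 6 fits without 1 array, with adjusted p up to 0.174. Of the 6 such fits, Rbp4 was called in 3, Adh7 in 2, and Aldh1a2, Dhrs3, Dhrs9, Fabp5 and Sdr16c5 in 1 each, while Aldh1a3 was called in none (adjusted p 0.0526 to 0.174).

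**Figure D3:**
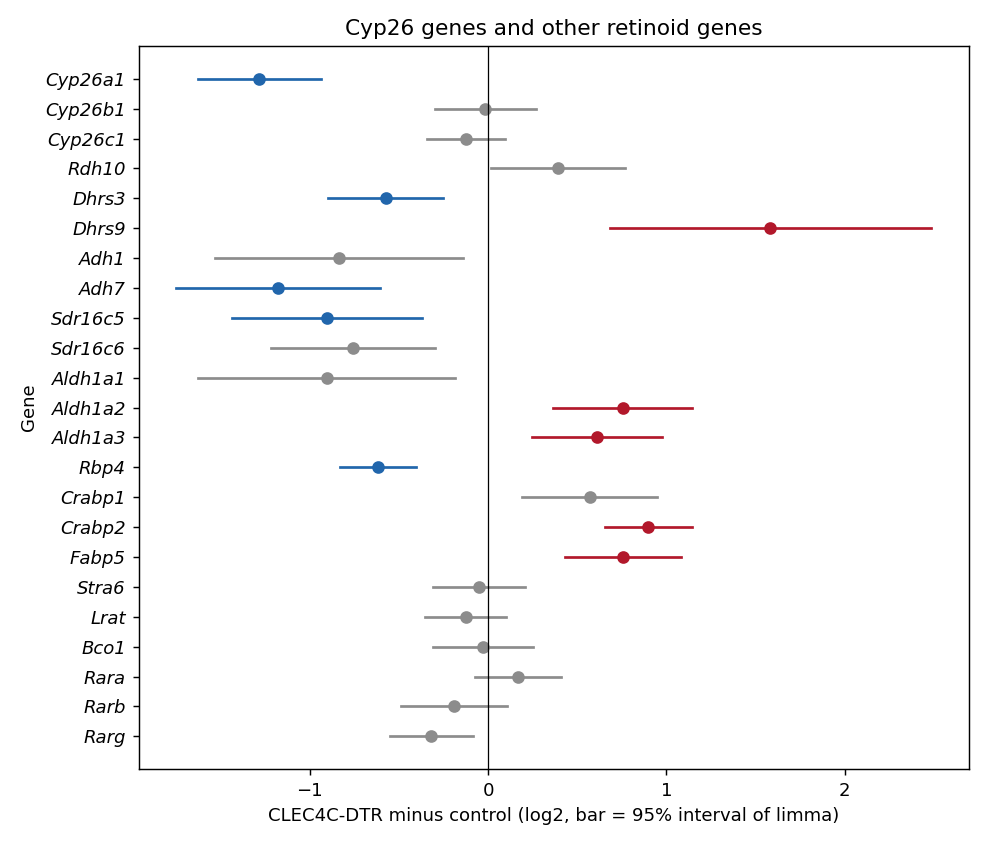
Difference between CLEC4C-DTR and control skin (log2, x axis) with limma's 95% interval for the 3 Cyp26 genes and the 20 measured retinoid genes (y axis), red where called higher, blue where called lower and grey where not called. Cyp26a1 lies at -1.28 and Cyp26b1 at -0.02, while Crabp2 lies at 0.90.

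In family 1, whose enzymes oxidise aromatic hydrocarbons and are induced through the aryl hydrocarbon receptor, Cyp1b1 rose and the difference of Cyp1a1 did not pass. Cyp1b1, the third brightest member, read 8.77, 8.77 and 8.61 in CLEC4C-DTR and 8.25, 8.35 and 8.25 in control mice. The groups did not overlap and each varied little. Its means were 8.71 ± 0.09 and 8.28 ± 0.05 (SD, n = 3 each), a 1.35-fold rise (log2 0.43, SE 0.08, 95% interval 0.24 to 0.62, limma adjusted p = 0.0243; 0.0347 to 0.105 with single arrays left out). Cyp1a1 read 5.56, 4.88 and 5.78 against 5.91, 6.04 and 5.89, with CLEC4C-DTR mouse 2 far below the rest. Its log2 difference was -0.54 (95% interval -1.02 to -0.07, adjusted p = 0.136). Cyp1a2 read 3.52 to 3.82 against 3.69 to 3.98 (log2 -0.12, adjusted p = 0.567). The log2 ratio of Cyp1b1 to Cyp1a1 was 2.83 to 3.89 in CLEC4C-DTR mice and 2.31 to 2.36 in controls, given without a test.

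The aryl hydrocarbon receptor binds a short core, GCGTG, and the start regions of both genes are shown with that core, or its reverse complement, in capitals. Both are from RefSeq, GRCm38.p6: Cyp1a1 on the plus strand at chr9:57697493-57697612, and Cyp1b1 on the minus strand at chr17:79715062-79715181, written 5′ to 3′ along the gene:
Cyp1a1: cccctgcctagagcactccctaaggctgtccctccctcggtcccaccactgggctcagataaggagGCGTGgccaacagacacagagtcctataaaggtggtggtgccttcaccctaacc
Cyp1b1: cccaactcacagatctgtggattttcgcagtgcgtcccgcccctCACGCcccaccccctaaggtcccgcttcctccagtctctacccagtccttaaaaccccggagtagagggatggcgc
Searched on both strands, the core was in 10639 of 32851 windows (32.4%) and in 15 of 70 Cyp windows (21.4%), so its presence separates few genes. It lies at -54 to -50 in Cyp1a1 and at -76 to -72, on the antisense strand, in Cyp1b1.

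Receptors of foreign compounds and their other targets were called higher in 1 and lower in 4 of 14 measured genes (15 listed). Of all genes 5.01% were called higher and 4.31% lower. Above the median level, where 8 of the 14 lay, 14.8% were called in either direction. Ahr, the aryl hydrocarbon receptor, read 8.37, 8.17 and 8.15 in CLEC4C-DTR and 8.74, 8.66 and 8.85 in control mice. All CLEC4C-DTR values were below the controls (log2 -0.52, SE 0.10, adjusted p = 0.0212). Its other target genes Nqo1, a quinone reductase, and Aldh3a1, an aldehyde dehydrogenase, fell by 0.63 (adjusted p = 0.0233) and 0.88 (adjusted p = 0.0290). Tiparp, a further target, lay the other way at 8.78, 9.83 and 9.41 against 8.43, 8.62 and 8.58, without overlap and without passing (log2 0.80, SE 0.23, adjusted p = 0.0676). Ahrr, the repressor of the receptor, differed by -0.19 (adjusted p = 0.340). The fatty acid receptors moved apart, with Ppard up by 0.80 (adjusted p = 0.0203) and Pparg, a regulator of sebocytes and adipocytes, down by 0.63 (adjusted p = 0.0179). With single arrays left out, each of the 5 called genes was called in 2 or 3 of the 6 fits, with adjusted p up to 0.119.

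Family 2 was the largest, with 45 members, and held the 2 brightest of all. Cyp2b10 and Cyp2j9 fell in limma's fit. No member rose, also at an unadjusted p of 0.05. Of all 85 members, 22 had an unadjusted p under 0.05 (27.3% of all genes did), 3 higher and 19 lower as deposited, and 5 higher and 16 lower after centring the arrays. All 5 Cyp2b members were negative under each of the 3 scalings, with a median of -0.28. Cyp2b10, a target of the nuclear receptor CAR in liver, was the brightest member and read 9.34, 8.66 and 8.97 in CLEC4C-DTR and 9.76, 9.52 and 9.64 in control mice. Its highest CLEC4C-DTR value was below its lowest control. The means were 8.99 ± 0.34 and 9.64 ± 0.12 (SD, n = 3 each), a 1.57-fold fall (log2 -0.65, SE 0.16, 95% interval -1.03 to -0.28, limma adjusted p = 0.0465; 0.0524 after centring the arrays, and 0.00675 to 0.148 with single arrays left out).

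Cyp2b19 is known as an arachidonic acid epoxygenase of differentiating keratinocytes and was the second brightest member. It read 8.31, 7.49 and 8.46 in CLEC4C-DTR and 9.001, 8.76 and 9.28 in control mice. The groups did not overlap, and mouse 2 was again lowest. The difference was larger than that of Cyp2b10 but did not pass (log2 -0.93, SE 0.25, 95% interval -1.50 to -0.36, adjusted p = 0.0543). It passed in 5 of 19 alternative limma fits, and in 1 of the 6 that leave out 1 array (adjusted p up to 0.187). Passing fits were those without CLEC4C-DTR mouse 1 (adjusted p = 0.0483), after a further quantile normalisation (0.0432) and among genes above the median level (0.0472). Array weights (0.0450) and the replicate number as a block (0.00983) gave the others. Within arrays the ratio of Cyp2b10 to Cyp2b19 overlapped between the groups. The remaining members Cyp2b9, Cyp2b23 and Cyp2b13 differed by -0.28 (adjusted p = 0.167), -0.23 (adjusted p = 0.206) and -0.09 (adjusted p = 0.558).

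The stretches before both bright Cyp2b starts are shown to let their likeness be seen, with the core GCGTG or its reverse complement in capitals where present. They are from RefSeq, GRCm38.p6, plus strand: Cyp2b10 at chr7:25897518-25897657 and Cyp2b19 at chr7:26757002-26757141.
Cyp2b10: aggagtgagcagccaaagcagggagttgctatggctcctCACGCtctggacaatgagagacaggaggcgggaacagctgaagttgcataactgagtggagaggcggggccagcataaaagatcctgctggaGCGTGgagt
Cyp2b19: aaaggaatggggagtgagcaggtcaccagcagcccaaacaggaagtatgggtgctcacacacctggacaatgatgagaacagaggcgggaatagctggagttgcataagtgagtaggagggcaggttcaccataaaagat
Over the 250 bases before the start, 186 of 275 aligned columns were identical (67.6%). For Cyp2b10 with Cyp2b9, Cyp2b13 and Cyp2b23, none of them called, the same measure was 71.0%, 71.0% and 62.9%. It was 49.7% for Cyp26a1 and Cyp26b1. Close paralogs may share array probes, and whether they do was not tested.

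Among the Cyp2j genes, whose enzymes make epoxides of arachidonic acid, Cyp2j9 fell. Cyp2j9 read 6.53, 5.98 and 6.24 in CLEC4C-DTR and 6.80, 7.01 and 7.46 in control mice, with no overlap. The means were 6.25 ± 0.28 and 7.09 ± 0.34 (SD, n = 3 each), a 1.79-fold fall (log2 -0.84, SE 0.19, 95% interval -1.28 to -0.39, limma adjusted p = 0.0370; 0.0185 to 0.116 with single arrays left out). Its chromosomal neighbour Cyp2j6 read 7.36, 6.76 and 7.22 against 7.70, 7.50 and 8.12. These groups did not overlap either, but the difference did not pass (log2 -0.66, SE 0.19, adjusted p = 0.0720). It passed in 2 of 19 alternative fits, without CLEC4C-DTR mouse 1 (adjusted p = 0.0460) and with the replicate number as a block (adjusted p = 0.0234). With single arrays left out its adjusted p reached 0.218. The within-array ratio of Cyp2j9 to Cyp2j6 overlapped between the groups. Cyp2j12 differed by -0.28 (adjusted p = 0.202), and the Cyp2j members ran from -0.84 to 0.19.

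Other family 2 genes did not pass. Cyp2f2, an enzyme known from airway club cells, read 7.44, 7.01 and 7.50 against 7.48, 7.82 and 8.37 and overlapped (log2 -0.58, adjusted p = 0.145). Cyp2s1, an epithelial P450, read 6.19, 6.09 and 6.33 against 6.19, 6.12 and 6.20 (log2 0.04, 95% interval -0.17 to 0.24, adjusted p = 0.830). Cyp2e1, the ethanol-oxidising enzyme, was dim at 4.33 to 4.46 against 4.33 to 4.79 (log2 -0.17, adjusted p = 0.405). The 13 Cyp2c genes, mainly hepatic drug and fatty acid oxidases, spanned -0.35 to 0.13, and the 10 Cyp2d genes -0.42 to 0.07. Neither subfamily held a call in limma's fit, and at an unadjusted p of 0.05 they held 2 and 3 genes. The largest of these differences that separated the groups were Cyp2d40 (log2 -0.42, adjusted p = 0.0694), Cyp2c67 (log2 -0.35, adjusted p = 0.0809), Cyp2d22 (log2 -0.23, adjusted p = 0.0887) and Cyp2d12 (log2 -0.20, adjusted p = 0.158).

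In family 3, drug oxidases best known from liver and gut, Cyp3a57 fell while Cyp3a13 did not pass. Cyp3a57 read 5.02, 4.79 and 4.95 in CLEC4C-DTR and 5.90, 5.93 and 5.90 in control mice. The controls varied less than in any other called member and lay well above every CLEC4C-DTR value. The means were 4.92 ± 0.12 and 5.91 ± 0.02 (SD, n = 3 each), a 1.99-fold fall (log2 -0.99, SE 0.09, 95% interval -1.19 to -0.79, limma adjusted p = 0.00802; 0.000848 to 0.0460 with single arrays left out). Cyp3a13, the brightest of the family, read 5.68, 6.13 and 6.18 against 5.37, 5.88 and 6.47 and overlapped (log2 0.09, 95% interval -0.52 to 0.69, adjusted p = 0.863). The other 4 differed by -0.24 to 0.06. Mouse Cyp3a genes are close in sequence and lie in clusters, so probes of one may catch another.

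Family 4 enzymes hydroxylate fatty acids and eicosanoids at the end of the chain, and its members moved in both directions. Cyp4f18, which inactivates leukotrienes in neutrophils, read 6.55, 7.93 and 7.99 in CLEC4C-DTR and 5.73, 5.83 and 5.56 in control mice. All CLEC4C-DTR values were above the controls, with mouse 1 well below the other two. The means were 7.49 ± 0.82 and 5.71 ± 0.13 (SD, n = 3 each), a 3.44-fold rise and the largest change of the 85 members (log2 1.78, SE 0.34, 95% interval 0.99 to 2.58, limma adjusted p = 0.0242). With single arrays left out it was 1.53 to 2.25 (adjusted p 0.000116 to 0.103). Of 8 neutrophil markers, 6 rose, and their mean read 8.93, 9.96 and 9.79 in the same 3 mice against 7.61 to 7.92 in controls, so it was lowest in mouse 1 as well. Of 8 macrophage and monocyte markers 5 rose, with means of 9.29, 9.51 and 9.70 against 8.37 to 8.73. Of all genes 5.01% were called higher, and of those above the median level 8.69%. The macrophage list and the list of activated keratinocyte genes (10.96, 11.80 and 11.79) were lowest in mouse 1 too. No marker of these lists was listed at 0, and their part in the rise of Cyp4f18 was not tested.

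The other 7 Cyp4f genes ran from -0.16 to 0.07 and none was called in limma's fit, nor was any at an unadjusted p under 0.05. Cyp4b1, a fatty acid and xenobiotic oxidase, read 7.76, 7.14 and 7.14 against 7.74, 8.0001 and 7.89. Mouse 1 lay within the controls, and the difference did not pass (log2 -0.53, SE 0.17, adjusted p = 0.0917), though without that mouse it did (adjusted p = 0.00526). It passed in only that 1 of 19 alternative fits, and with single arrays left out its adjusted p reached 0.239. The Cyp4a genes, fatty acid hydroxylases known as targets of the receptor Ppara, were dim, with means of 2.72 to 3.98. Cyp4a31, among the dimmest of all genes at percentile 0.818, read 2.43, 2.60 and 2.54 against 2.94, 2.86 and 2.98. The groups did not overlap, and the small difference passed (log2 -0.41, SE 0.08, 1.33-fold, adjusted p = 0.0274; 0.0411 to 0.115 with single arrays left out). At such a level a signal above background cannot be shown from these values. Cyp4a14 differed by -0.49 (adjusted p = 0.0672) and Cyp4a12b by 0.01 (95% interval -0.31 to 0.33, adjusted p = 0.974).

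**Figure D4:**
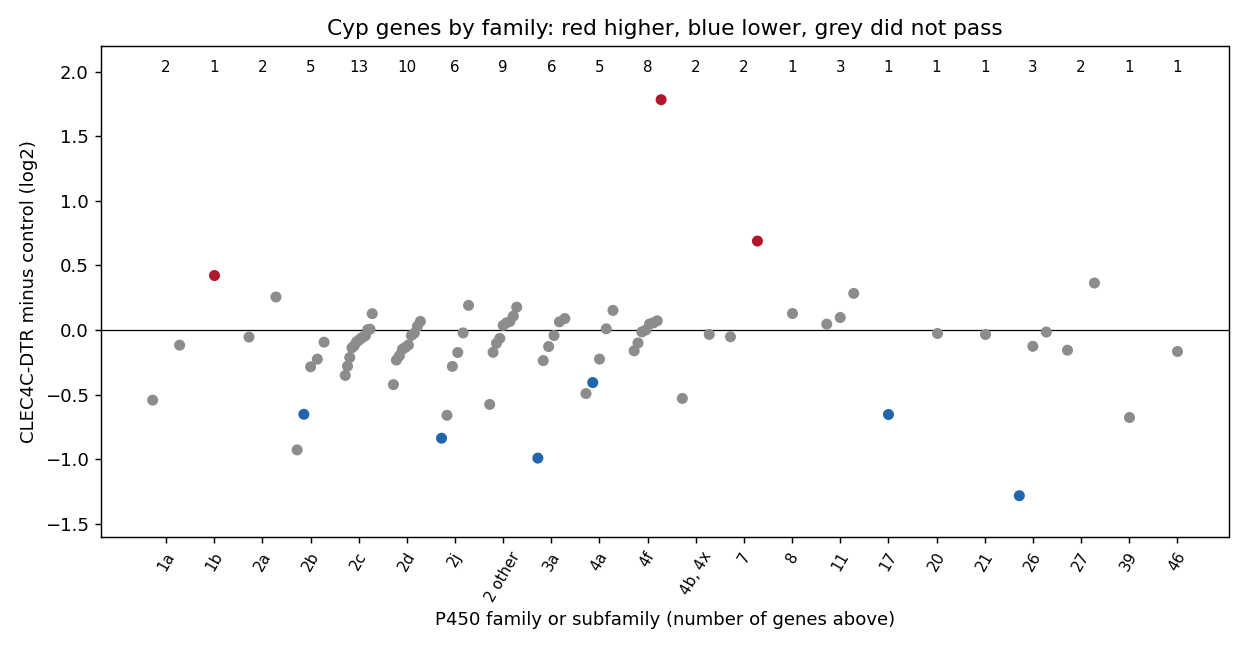
Difference between CLEC4C-DTR and control skin (log2) of each of the 85 Cyp genes, arranged by family number, with called genes coloured. Cyp4f18 stands highest at 1.78 and Cyp26a1 lowest at -1.28, and 61 of 85 members lie within 0.25 of 0.

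Among enzymes of sterols and bile acids, Cyp7b1 rose. Cyp7b1 hydroxylates oxysterols and some steroids, and it shapes ligands of the leukocyte receptor Gpr183. It read 8.37, 8.73 and 8.71 in CLEC4C-DTR and 7.78, 7.99 and 7.98 in control mice. The groups did not overlap, and mouse 1 was the lowest of its group. The means were 8.61 ± 0.20 and 7.92 ± 0.12 (SD, n = 3 each), a 1.61-fold rise (log2 0.69, SE 0.12, 95% interval 0.42 to 0.96, limma adjusted p = 0.0184; 0.00322 to 0.0790 with single arrays left out). Cyp39a1, another oxysterol hydroxylase, lay the other way at 6.49, 5.99 and 6.43 against 6.73, 6.85 and 7.35. These groups did not overlap, yet the difference did not pass (log2 -0.67, SE 0.19, adjusted p = 0.0643). Cyp27a1, the mitochondrial sterol hydroxylase, differed by -0.16 (95% interval -0.40 to 0.08, adjusted p = 0.382). Cyp46a1, which hydroxylates cholesterol in brain, differed by -0.16 (adjusted p = 0.510) and the bile acid enzyme Cyp8b1 by 0.13 (adjusted p = 0.386).

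The steroid-forming P450 genes were called once. Cyp17a1, which makes androgen precursors, read 6.04, 5.54 and 6.13 in CLEC4C-DTR and 6.66, 6.39 and 6.59 in control mice. No CLEC4C-DTR value reached the controls. The means were 5.90 ± 0.32 and 6.55 ± 0.14 (SD, n = 3 each), a 1.57-fold fall (log2 -0.65, SE 0.16, 95% interval -1.01 to -0.28, limma adjusted p = 0.0442; 0.0516 after centring the arrays, and 0.0394 to 0.151 with single arrays left out). Cyp11a1, which starts steroid synthesis from cholesterol, differed by 0.05 (95% interval -0.23 to 0.32, adjusted p = 0.844), and Cyp21a1 by -0.03 (adjusted p = 0.882). Of 17 measured oxysterol and steroid genes outside the P450 families, 1 rose and 1 fell, where 5.01% and 4.31% of all genes did. The mitochondrial cholesterol-binding protein Tspo rose by 0.80 (adjusted p = 0.0261), and Hsd3b6, a steroid dehydrogenase, fell by 1.43 (adjusted p = 0.0369). Ch25h, which makes the oxysterol upstream of Cyp7b1, varied widely at 8.22, 8.51 and 7.24 against 7.42, 8.29 and 7.48 (log2 0.26, SE 0.34, adjusted p = 0.678). The calls of Tspo and Hsd3b6 were kept in 2 of the 6 fits without 1 array each, with adjusted p up to 0.105 and 0.141.

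Vitamin D enzymes did not pass. Cyp27b1, which activates vitamin D, read 5.48, 6.03 and 5.01 against 5.28, 5.19 and 4.96 and overlapped (log2 0.36, SE 0.23, 95% interval -0.16 to 0.89, adjusted p = 0.351). Cyp24a1 was not analysed here. Vdr, the vitamin D receptor, differed by 0.02 (adjusted p = 0.910). Of the 5 measured genes of the vitamin D list, Fgf23, a hormone that lowers active vitamin D, rose by 1.35 (adjusted p = 0.0184) and the calcium channel Trpv6 fell by 0.84 (adjusted p = 0.0313), the first to an adjusted p of 0.0832 and the second to 0.125 at most with single arrays left out. Cyp20a1, an orphan enzyme, read 7.36 ± 0.06 against 7.38 ± 0.09 (SD, n = 3 each; log2 -0.02, 95% interval -0.22 to 0.17, adjusted p = 0.880).

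Genes that work beside the P450 enzymes were called in both directions. Of 7 measured electron donors and haem carriers (10 listed), limma called 3 lower and 5 had an unadjusted p under 0.05, with a list median of -0.33. Fdx1, the ferredoxin that feeds mitochondrial P450s, read 8.08, 8.10 and 8.16 in CLEC4C-DTR and 8.61, 8.53 and 8.79 in control mice. The groups lay clearly apart (log2 -0.53, SE 0.09, adjusted p = 0.0186). Cyb5a, cytochrome b5, fell by 0.49 (adjusted p = 0.0340) and the haem-binding P450 partner Pgrmc1 by 0.45 (adjusted p = 0.0336). Of the epoxide hydrolases, Ephx1 fell by 1.06 (adjusted p = 0.0263) and Ephx2 by 0.54 (adjusted p = 0.0465), while Ephx3, an epidermal form, rose by 0.79 (adjusted p = 0.0397). Of 18 measured oxidases and conjugating enzymes 5 fell and 1 rose. Those that fell were the flavin monooxygenases Fmo1 (log2 -1.02, adjusted p = 0.0263) and Fmo5 (log2 -0.65, adjusted p = 0.0402), Aox1 (log2 -0.66, adjusted p = 0.0279), Sult1a1 (log2 -0.42, adjusted p = 0.0494) and Gstm1 (log2 -1.03, adjusted p = 0.0242). Gsta4, a glutathione transferase for lipid aldehydes, rose by 1.54 (adjusted p = 0.0166). Over all 87 measured partner and pathway genes 10 rose and 20 fell, beside 5.01% and 4.31% of all genes, and 53 of the 87 lay above the median level, where 14.8% of genes were called in either direction. Without CLEC4C-DTR mice 1, 2 and 3 in turn 35, 5 and 1 were called, and without controls 1, 2 and 3 in turn 2, 18 and 1. For the called electron donors, haem carriers, epoxide hydrolases, oxidases and conjugating enzymes, the adjusted p with 1 array left out reached at most 0.172. Gsta4 was called in 4 of these 6 fits, Gstm1 in 3, Fdx1 and Aox1 in 2, Ephx2 in none (adjusted p from 0.0527), and the others in 1.

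Markers of some skin compartments were also lower in CLEC4C-DTR skin. The counts below stand beside 5.01% of all genes called higher and 4.31% called lower. Above the median level these shares were 8.69% and 6.08%. In 19.0% of all genes every CLEC4C-DTR value lay below every control. Fibroblast and endothelial markers were mixed. In each list 1 of 6 was called, and it was higher, but 4 of 6 were negative (list medians -0.23 and -0.09). In 3 fibroblast genes all CLEC4C-DTR values lay below the controls. Of 8 sebaceous gland genes, 4 fell (Elovl3, Far2, Scd1 and Scd3), and the list mean was 7.998, 7.56 and 8.03 in CLEC4C-DTR mice 1, 2 and 3 against 8.34 to 8.46 in controls. Among CLEC4C-DTR mice, mouse 2 was lowest there. The same held for the basal and differentiated keratinocyte, adipocyte, fibroblast, skeletal muscle, melanocyte, hair shaft and mast cell lists. Of the 6 called lower members, mouse 2 was lowest for Cyp2b10, Cyp2j9, Cyp17a1 and Cyp3a57 but highest for Cyp26a1 and Cyp4a31. Of 7 basal keratinocyte genes 6 were negative and 1 was called, Krt15 (log2 -1.59, limma adjusted p = 0.0193). The basal list means were 10.09 to 10.44 against 10.61 to 10.70. Of 6 adipocyte genes 1 fell, with means of 5.75 to 6.17 against 6.48 to 7.23. Of 6 skeletal muscle genes 2 fell, with means of 9.09 to 9.59 against 9.76 to 10.41, and of 5 melanocyte genes 2 fell. Differentiated keratinocyte genes, 4 measured of 7 listed, overlapped at 9.43 to 10.45 against 9.99 to 10.26, while all 6 activated keratinocyte genes rose, with means of 10.96 to 11.80 against 9.03 to 9.50. No marker was listed at 0, nor was any other probe set. The part of these compartments in the differences of the P450 genes was not tested.

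**Figure D5:**
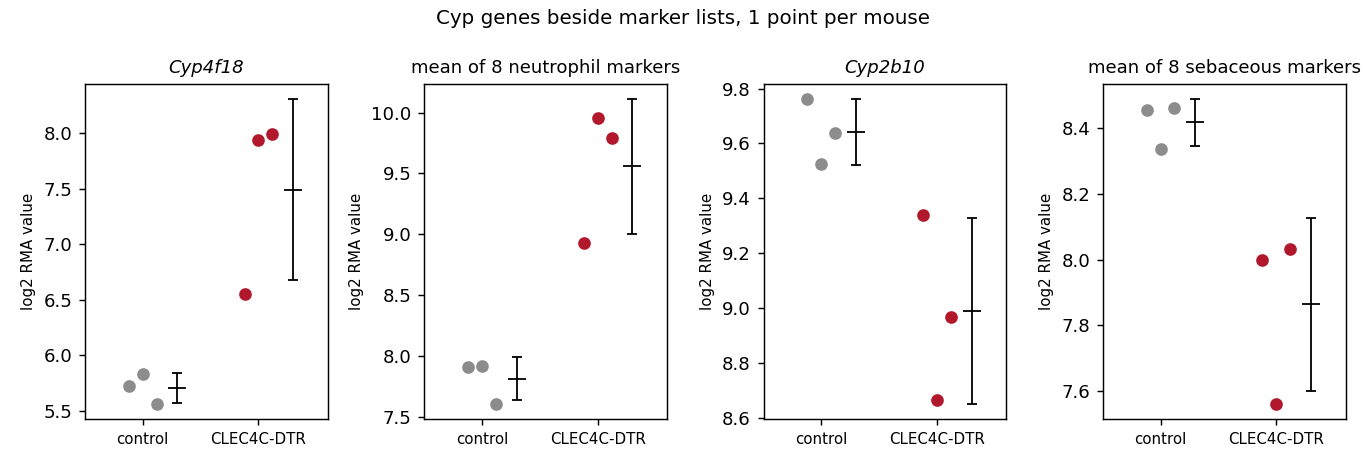
Log2 RMA values (y axis, own scale in each panel) of Cyp4f18 and Cyp2b10 beside the mean log2 value of 8 neutrophil and 8 sebaceous gland markers in each of the 6 mice, with the group mean and SD. Among CLEC4C-DTR mice, Cyp4f18 and the neutrophil list are lowest in mouse 1 (6.55 and 8.93). Cyp2b10 and the sebaceous list are lowest in mouse 2 (8.66 and 7.56). Lists not plotted are lowest in the same mice: macrophage and activated keratinocyte in mouse 1, adipocyte, skeletal muscle and others in mouse 2.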

How the data were processed

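Biotin-labelled total RNA of whole ear skin was hybridised to Affymetrix gene arrays, per the labels' protocols. The deposited log2 values were made by the authors with RMA, per the series' design text. Its software and version are not given in the sources at hand. The build mm8 is named, with no role, by the submitters' processing notes. Of 35556 probe sets, the platform annotation lists 1 symbol for 21789, several for 1621 and does not list 12146. Single-symbol probe sets were kept, with the brightest over 6 arrays for each gene, which gave 19938 genes, none left out for a low level. Of their Entrez identifiers 21698 were found in RefSeq's gene table and 91 were not. No current symbol differed from the annotation's.

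The groups were compared by limma 3.58.1 (lmFit, eBayes; R 4.3.3), two-sided, 3 separate mice a group, with Benjamini-Hochberg adjustment over all genes and calls at 0.05. Differences are CLEC4C-DTR minus control. On simulated data (19938 genes) limma recovered 17, 44, 49 and 50 of 50 genes changed by 0.5, 1, 2 and 3. Alternatives were other scalings, filters on dim genes, variance models, array weights, probe set rules, a block for replicate number and each array left out; the alternative that adds probe sets with several symbols was chosen after seeing the data. Promoter windows are RefSeq's (GRCm38.p6), aligned with Biopython 1.88. Figures used matplotlib 3.10.9.

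Members and lists were chosen with earlier results of these data known. Named were called members, the 10 brightest, the brightest of each family, 14 enzymes of interest, up to 10 members that did not overlap and were not called, and called list genes with 6 others. Por, also to be named, was not analysed here. Members named outside this rule were Cyp1a2, Cyp2b9, Cyp2b13, Cyp2b23 and Cyp26c1, which complete small subfamilies, and were chosen after their values were seen.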

Additional observations from a re-analysis of the deposited data

How the results depend on the processing

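As reported, limma called 1858 genes, 3 Cyp genes higher, 6 Cyp genes lower and 30 partner and pathway genes. With a 2-fold difference required as well, the counts were 408, 1, 1 and 8. Without moderation of variances all 4 counts were 0, where 4387 genes, 17 Cyp genes and 35 partner genes had an unadjusted p under 0.05. With unlisted probe sets added to the fit they were 95, 0, 2 and 1. Among genes above the median level, 14 Cyp genes were tested and 3 were called lower. With each array left out in turn, the counts ran from 67 to 2617 for all genes, 0 to 3 for Cyp genes higher, 2 to 9 for Cyp genes lower and 1 to 35 for partner genes. The cause was not tested, except that fewer genes or arrays enter some of these fits.

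Differences near 0 changed sign. After centring, Cyp20a1 was 0.020, Cyp21a1 0.018 and Cyp26b1 0.029, and after quantile normalisation Cyp21a1 was 0.013. With single arrays left out, Cyp11a1 ran from -0.044 to 0.13, Cyp20a1 from -0.075 to 0.0053, Cyp21a1 from -0.096 to 0.033, Cyp26b1 from -0.087 to 0.12, Cyp2s1 from -0.027 to 0.095, Cyp3a13 from -0.18 to 0.37 and Cyp4a12b from -0.12 to 0.16.

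With the replicate number as a block, 2084 genes, 3 Cyp genes higher, 9 Cyp genes lower and 34 partner genes were called. All 9 main Cyp calls were among them, and Cyp2b19 (adjusted p = 0.00983), Cyp2j6 (0.0234) and Cyp39a1 (0.0344) joined. Deviations of same-numbered arrays correlated at -0.06, 0.22 and 0.10. CLEC4C-DTR mouse 1 correlated best with control 3 (0.18), while mice 2 and 3 correlated best with the control of their own number. The number is a label that both groups share, and whether it marks a pairing cannot be told from these values.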

Other observations

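A further 7 probe sets carry a Cyp symbol beside other symbols and stand outside the 85 members. In a fit over 23410 listed probe sets, added after seeing the data, limma called 1 of the 7, beside 2069 of all 23410. The probe set shared by Cyp3a59, Cyp3a57 and Cyp3a25 read 4.09, 4.24 and 4.40 in CLEC4C-DTR mice and 4.70, 4.68 and 5.19 in controls. The groups did not overlap (log2 -0.61, SE 0.15, 1.53-fold lower, adjusted p = 0.0472), and Cyp3a57 also fell on its own probe set. By contrast, the probe set shared by Cyp4a32, Cyp4a31 and Cyp4a10 overlapped between the groups (log2 -0.09, adjusted p = 0.562), though Cyp4a31 fell on its own. The probe set shared by Cyp3a41b, Cyp3a44 and Cyp3a41a differed by 0.29 (adjusted p = 0.263), and that of the coumarin hydroxylase Cyp2a5 and Cyp2a4 by 0.13 (adjusted p = 0.469).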
